A study of Mus musculus with 9 samples.

Results

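The genes described here are 10 used as markers of resident macrophages, above all of those along blood vessels, and most encode surface receptors: Mrc1, Cd163, Lyve1, Folr2, Timd4, Cbr2, Cd209a, Cd209b, Cd209d and Cd209f. They were taken by gene symbol from a table of 45904 identifiers, and all 10 were found, each under 1 identifier. They were chosen by name by a proposal that had FPKM levels and changes over these 9 libraries in view, and which values decided is not recorded. The levels, changes and adjusted p-values below therefore describe these genes and are no independent evidence about them as a set.

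The tissue was whole dorsal root ganglia of the sciatic nerve, which hold the cell bodies of its sensory neurons together with glia, vessels and immune cells, and its RNA was sequenced. All mice were of the C57BL/6 strain, with no transgene or deleted gene named in the labels. The 3 groups had 3 libraries each: young sham (mice of 8 to 10 weeks, sham surgery), aged sham (20 to 22 months, sham surgery) and aged injury (20 to 22 months, injury of the sciatic nerve). Tissue was taken 24 h after surgery, and each library pooled the ganglia of 2 mice, so the spread between libraries is that between pools. Injury was compared in aged mice, and injured young ganglia were not analysed here.

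Perivascular and other long-lived tissue macrophages sample their surroundings by endocytosis, and the receptors that mark them bind sugars, hemoglobin complexes, hyaluronan, folate and dying cells. Such cells renew largely in place and depend on signalling through the receptor Csf1r, whereas monocytes recruited from blood carry other markers at first. In peripheral nerve and ganglia, macrophages lie next to vessels and around neuron cell bodies, and they are known to multiply and to change their gene expression after injury of the axons.

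The 10 genes fall into C-type lectins, other uptake receptors and 1 enzyme. Mrc1 (chr2:14229392-14332057, plus strand) encodes the mannose receptor CD206, which takes up glycoproteins that end in mannose, fucose or N-acetylglucosamine. Cd209a (chr8:3743397-3748984), Cd209d (chr8:3871824-3878555), Cd209b (chr8:3917655-3926844) and Cd209f (chr8:4102787-4105835) lie in 1 cluster on the minus strand and are mouse relatives of the human lectin DC-SIGN. Of these, Cd209b encodes SIGN-R1, a receptor for bacterial polysaccharides in the marginal zone of the spleen. Cd163 (chr6:124304656-124330527, plus strand) encodes the scavenger receptor for complexes of haptoglobin and hemoglobin, and Lyve1 (chr7:110850607-110863239, minus strand) a hyaluronan receptor that lymphatic endothelium also carries. Folr2 (chr7:101839988-101857194, minus strand) encodes folate receptor beta, and Timd4 (chr11:46810800-46844332, plus strand) the phosphatidylserine receptor TIM-4. Cbr2 (chr11:120729489-120732114, minus strand) encodes carbonyl reductase 2, an enzyme and not a receptor. All positions are those of GENCODE release M21 on GRCm38.

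Sequence bears on 1 of the largest differences reported below, that of Cd209f, because this gene shares long exact stretches with its neighbour Cd209g. Of all 50-base windows of the Cd209f transcripts, 29.8% were also found in Cd209g, and of the 100-base windows 19.9%. The coding sequences of the pair, 825 bases in Cd209f and 585 in Cd209g, held an exact run of 178 bases. They were identical in 522 of 825 alignment columns (63.3%). Gaps from the difference in length count there as not identical, so the share understates the likeness of the aligned bases. The last 120 bases of this run and the next 20 coding bases are shown from GENCODE release M21, 5′ to 3′ on the coding strand, with capitals where the genes differ (coding bases 242 to 381 of Cd209f, 59 to 198 of Cd209g).
Cd209f: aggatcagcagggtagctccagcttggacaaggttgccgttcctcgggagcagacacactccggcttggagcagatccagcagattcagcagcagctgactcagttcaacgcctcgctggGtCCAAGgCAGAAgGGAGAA
Cd209g: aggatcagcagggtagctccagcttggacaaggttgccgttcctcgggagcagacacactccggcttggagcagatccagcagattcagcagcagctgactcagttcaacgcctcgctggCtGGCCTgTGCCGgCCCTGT
Reads that fall within the lower-case stretch carry no letter that tells the genes apart.

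The start regions of Cd209f and Cd209g were as alike as parts of their coding sequence. Windows from 250 bases before to 50 bases after the annotated start, from RefSeq on GRCm38.p6, were 80.9% identical over their alignment. An exact run of 180 bases, in capitals, spans the start of both genes (Cd209f, chr8:4105715-4106014, minus strand, and Cd209g, chr8:4134486-4134785, plus strand).
Cd209f: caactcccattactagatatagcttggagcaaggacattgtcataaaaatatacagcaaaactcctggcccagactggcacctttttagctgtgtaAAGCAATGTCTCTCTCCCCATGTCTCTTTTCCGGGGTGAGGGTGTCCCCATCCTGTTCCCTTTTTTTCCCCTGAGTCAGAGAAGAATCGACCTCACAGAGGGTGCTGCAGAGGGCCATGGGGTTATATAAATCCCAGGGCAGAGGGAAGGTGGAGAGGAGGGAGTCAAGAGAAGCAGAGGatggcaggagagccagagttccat
Cd209g: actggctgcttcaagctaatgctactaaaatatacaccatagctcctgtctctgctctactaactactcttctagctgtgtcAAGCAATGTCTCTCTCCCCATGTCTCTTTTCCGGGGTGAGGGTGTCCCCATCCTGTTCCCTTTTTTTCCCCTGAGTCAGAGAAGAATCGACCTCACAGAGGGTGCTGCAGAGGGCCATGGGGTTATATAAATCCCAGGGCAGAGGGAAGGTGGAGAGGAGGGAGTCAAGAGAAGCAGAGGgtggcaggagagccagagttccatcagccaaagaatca
These windows show which sequence the pair has in common, and no binding at them was measured.

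Such a window was at hand for 9 of the 10 genes, and 2 motifs were searched in it on both strands. GAGGAAG, a form of the site of PU.1, the ETS factor of the myeloid lineage, was in 13.5% of all 27025 windows. It was present in the windows of Mrc1 (starting at bases -168 and -36 from the start site) and Cbr2 (at base -79). TGCTGAC, the half-site of MAF factors, was in 4.58% of all windows and in those of Timd4 and Cbr2. No other window among the 9 held either string of letters, and the strings do not overlap each other. The Mrc1 window is shown because Mrc1 was the gene of the 10 called after injury (RefSeq, GRCm38.p6, chr2:14229164-14229463, plus strand); capitals mark CTTCCTC, the reverse complement of GAGGAAG.
Mrc1: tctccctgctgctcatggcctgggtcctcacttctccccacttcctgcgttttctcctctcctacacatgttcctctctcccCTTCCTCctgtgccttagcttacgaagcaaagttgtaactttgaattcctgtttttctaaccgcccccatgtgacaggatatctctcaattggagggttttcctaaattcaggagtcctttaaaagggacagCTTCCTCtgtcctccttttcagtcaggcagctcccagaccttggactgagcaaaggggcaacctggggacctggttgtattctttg
A match of letters is a description of the sequence and does not show that a factor binds there.

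The label of the set was checked against markers of the cell types a whole ganglion holds. The general macrophage genes Csf1r (3.47 to 6.61 FPKM) and Cd68 were above 0 in all 9 libraries. FPKM are fragments per kilobase of gene relative to library size, so they allow for gene length and depth. As shares of a library they also move between libraries when the levels of other genes change. Lyve1 is also a gene of lymphatic endothelium, and the 7 other genes listed for that cell type were at very different levels. Prox1 reached at most 0.086 FPKM and Stab2 at most 0.15 FPKM, and Ccl21a was at 0 in all 9 libraries. Flt4 was at 0.293 to 0.611 FPKM, Mmrn1 at 0.092 to 0.609 FPKM, Reln at 1.48 to 4.16 FPKM and Pdpn, which other cells also express, at 9.06 to 14.4 FPKM. These last 4 were tested, with 0 called by limma in each comparison. In the age comparison Reln had an unadjusted p under 0.05 (log2 change 0.69, limma adjusted p = 0.0939), in each of the other comparisons 0 of the 4 had, and limma voom on recovered reads called 0 in each. Summed over the list, lymphatic genes were at 12.9 to 14.8 FPKM in young sham, 12.1 to 17.1 FPKM in aged sham and 15.9 to 17.9 FPKM in aged injury, and their part in the level of Lyve1 was not tested. RNA of whole tissue does not tell more cells of a type from more RNA per cell.

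The groups also differed in facts that touch every comparison. Xist, expressed from the inactive X chromosome of females, was at most 0.02 FPKM in young sham, at 1.75, 11.2 and 10.2 FPKM in the aged sham libraries, and between 9.77 and 13.1 FPKM in aged injury. The Y-linked gene Ddx3y was at 13.8 to 15.7 FPKM in young sham, at 10.9 FPKM in aged sham 1 and no higher than 0.013 FPKM in any of the remaining 5 aged libraries. Age and sex therefore cannot be told apart, and of the aged pools aged sham 1 alone held much Y-linked RNA. The aged sham and aged injury groups were thus not balanced for sex either, and the part of sex in any change was not tested. The total depth implied by the values ran from 11200000 to 16200000 fragments per library. Counts of called identifiers moved with the scaling. In the age comparison 445 rose and 262 fell, against 281 and 536 with library medians set equal and 388 and 509 after quantile normalization. In the injury comparison 432 rose and 291 fell, against 287 and 294 with equal medians. In aged injury against young sham 1444 rose and 860 fell, against 1029 and 1670 with equal medians and 1168 and 1241 after quantile normalization.

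**Figure D1:**
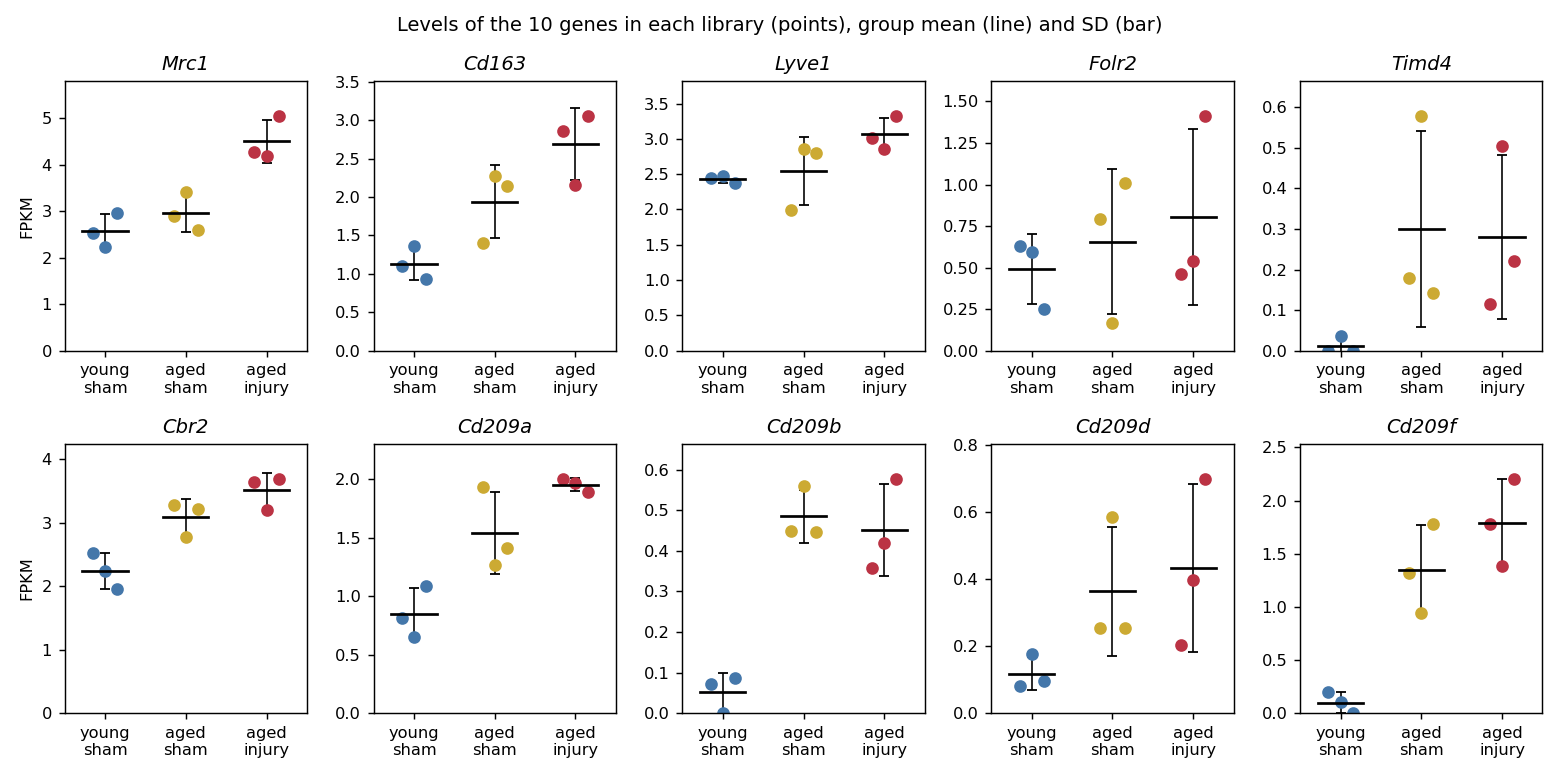
Level of each of the 10 genes in FPKM (vertical axis, linear from 0, own scale per panel) in the 3 libraries of each group, with the group mean as a line and the SD as a bar. Cd209b, Cd209f and Timd4 sit near 0 in young sham and higher in both aged groups, while Lyve1 and Folr2 overlap between young and aged sham.

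All 10 genes were low in whole ganglia, the highest value being 5.04 FPKM (Mrc1 in aged injury 3), and their summed level differed between all 3 groups without overlap. The sum over the 10 was 10.4, 9.87 and 9.74 FPKM in young sham 1 to 3, 14.5, 15.4 and 15.8 FPKM in aged sham, and 18.7, 17.6 and 22.1 FPKM in aged injury. Each young library was below each aged one, and each injured library above each aged sham one. Of single tested identifiers, 17.7% were higher without overlap in aged than in young sham. The share was 11.7% for aged injury above aged sham and 19.9% for aged injury above young sham. The 10 genes were chosen with their changes in view, so the separation of their sum is a description only. In young sham the order of mean levels was Mrc1 (2.57 FPKM), Lyve1 (2.43), Cbr2 (2.24), Cd163 (1.13), Cd209a (0.852), Folr2 (0.493), Cd209d (0.119), Cd209f (0.101), Cd209b (0.0529) and Timd4 (0.0123). Neighbours whose ranges over the 3 libraries did not overlap were Cbr2 and Cd163, Cd209a and Folr2, and Folr2 and Cd209d, and all other neighbours overlapped. In aged sham the order began with Cbr2 (3.09 FPKM), Mrc1 (2.96) and Lyve1 (2.55), and Cd209f had moved from place 8 to place 6 (1.35 FPKM), ahead of Folr2. All neighbours in that order overlapped in range. In aged injury Mrc1 (4.5 FPKM) stood above the next gene, Cbr2 (3.5 FPKM), without overlap, and Cd163 (2.69 FPKM) above Cd209a (1.95 FPKM).

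The first comparison asked what age changes in ganglia whose nerve was not injured. Of the 9 genes tested, Cd209f and Cd209b rose with age in the aged sham libraries, and no other passed the test. Across all 17601 identifiers tested, 4.02% had an adjusted p under 0.05 (2.53% higher and 1.49% lower). The test was limma on log2(FPKM + 0.1) with Benjamini-Hochberg adjustment over all identifiers with a mean of at least 0.2 FPKM. Of the 9 genes tested, 2 were called higher and 0 lower, and 6 had an unadjusted p under 0.05, all higher. limma voom on recovered reads also called Cd209f and Cd209b. The median log2 change of the 9 was 0.71, against 0.045 over all tested identifiers. In 7 of the 10 genes, every aged sham library was above every young one, as in 17.7% of all identifiers, and in none of the 10 below, a pattern that 2017 of the 17601 identifiers showed. Cd209b, Cd209d and Cd209f had young means under 0.2 FPKM and passed the filter through the aged groups, so these counts and the median are descriptions only. The 7 genes without overlap include Timd4, which was not tested, while the 17.7% is a share of tested identifiers.

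Cd209f had the largest log2 change of the 9 tested genes. It was at 0.199, 0.105 and 0 FPKM in young sham 1 to 3, while aged sham had 1.32, 0.939 and 1.78 FPKM and aged injury 1.78, 1.39 and 2.2 FPKM. Because the FPKM of 1 gene are whole multiples of the worth of 1 read, these values could be turned back into reads: 4, 2 and 0 in young sham, 26, 16 and 35 in aged sham, and 44, 29 and 42 in aged injury. All aged libraries were above all young ones. The log2 change from young to aged sham was 2.94 (SE 0.40, 95% confidence interval 2.04 to 3.84, limma adjusted p = 0.0167), a fold of 7.68 on the log2(FPKM + 0.1) scale, which understates changes of low genes. The ratio of the mean FPKM was 13.3. Without aged sham 2 the log2 change was 3.16 (limma adjusted p = 0.0533) and without aged sham 3 it was 2.73 (limma adjusted p = 0.0728), so the call did not hold in those fits, nor in a fit of the 2 groups alone (2.94, limma adjusted p = 0.079). With a pseudocount of 1 FPKM the log2 change became 1.08 (limma adjusted p = 0.0257).

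The neighbour Cd209g, with which Cd209f shares the sequence printed above, was at 0.627, 0.296 and 0.082 FPKM in young sham, 0.785, 0.824 and 0.857 FPKM in aged sham, and 0.626, 1.21 and 1.18 FPKM in aged injury. Its young and aged sham groups did not overlap, while aged injury 1 lay at the level of young sham 1. Its log2 change with age was not called (fold 2.46, limma adjusted p = 0.116). How the submitters' counting treated reads that match both genes is not given in the sources used here, so the level of Cd209f by itself is uncertain. The reads of both genes together were 13, 6 and 1 in young sham, 37, 26 and 47 in aged sham, and 55, 47 and 58 in aged injury. Counted together, which was chosen after seeing the data, the pair rose by 2.78 on the log2 scale with age (limma voom adjusted p = 0.0222).

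Cd209b, the gene of SIGN-R1, was at 0.073, 0 and 0.086 FPKM in young sham, 0.448, 0.559 and 0.447 FPKM in aged sham, and 0.357, 0.42 and 0.577 FPKM in aged injury. These are 2, 0 and 2 reads in young sham, 12, 13 and 12 in aged sham and 12, 12 and 15 in aged injury, so both aged groups were above the young one and overlapped each other. The change with age was 1.98 on the log2 scale (SE 0.36, 95% confidence interval 1.18 to 2.78, limma adjusted p = 0.0325), and the ratio of mean FPKM was 9.16. None of the 50-base windows of Cd209b occurred in another annotated gene. The call did not hold without young sham 1 (log2 change 2.09, limma adjusted p = 0.0922), young sham 3 (2.15, 0.0733), aged sham 2 (1.89, 0.0776), aged sham 3 (2.03, 0.0947) or aged injury 1 (1.98, 0.051), and the replicate block, described with the alternatives, gave an adjusted p of 0.0706. With a pseudocount of 1 FPKM the change became 0.50, since 1 FPKM exceeds every value of this gene.

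The remaining lectins of the cluster did not pass the test with age. Cd209a was at 0.818, 0.651 and 1.09 FPKM in young sham, 1.94, 1.27 and 1.41 FPKM in aged sham, and 2, 1.97 and 1.89 FPKM in aged injury. The groups did not overlap between young and aged sham, and the log2 change was 0.79 (SE 0.20, limma adjusted p = 0.0571). Cd209d rested on 1, 2 and 1 reads in young sham, 3, 6 and 3 in aged sham and 3, 5 and 8 in aged injury, and its log2 change was 1.04 (SE 0.45, limma adjusted p = 0.185). Summed over Cd209a, Cd209b, Cd209d and Cd209f, the reads were 23, 16 and 21 in young sham, 78, 56 and 77 in aged sham, and 107, 86 and 100 in aged injury. Each aged library held more of them than each young one. These reads are not scaled for depth, and Cd209b, Cd209d and Cd209f passed the filter through the aged groups, so this is a description only. The other relatives were lower still: Cd209c was at most 0.297 FPKM and Cd209e at most 0.172 FPKM in any library, and neither was tested.

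Among the uptake receptors, no gene passed the test with age. Cd163 was at 1.1, 1.36 and 0.937 FPKM in young sham, 1.4, 2.28 and 2.14 FPKM in aged sham, and 2.85, 2.16 and 3.05 FPKM in aged injury. Aged sham 1 lay just above the highest young library, and the log2 change was 0.71 (SE 0.21, limma adjusted p = 0.0827). Mrc1 was at 2.53, 2.23 and 2.95 FPKM in young sham, 2.9, 3.41 and 2.59 FPKM in aged sham, and 4.27, 4.18 and 5.04 FPKM in aged injury. Its young and aged sham groups overlapped, and its log2 change with age was 0.20 (95% confidence interval -0.11 to 0.51, limma adjusted p = 0.387). Lyve1 was at 2.37 to 2.47 FPKM in young sham and 2 to 2.85 FPKM in aged sham, and the log2 change was 0.05 (95% confidence interval -0.26 to 0.36, limma adjusted p = 0.849).

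Folr2 and Timd4 were the least certain. Folr2 was at 0.633, 0.596 and 0.249 FPKM in young sham, 0.792, 0.166 and 1.01 FPKM in aged sham, and 0.459, 0.541 and 1.41 FPKM in aged injury, and all groups overlapped. Of its 1546 bases of exon, 975 overlap those of the antisense gene Gm10602, and without a stated handling of strand the reads of both cannot be told apart. Timd4 rested on 0, 1 and 0 reads in young sham, 5, 14 and 4 in aged sham, and 4, 15 and 6 in aged injury. Its mean over the 9 libraries was 0.197 FPKM, just under the filter, so it was not tested. With no filter its log2 change with age was 1.69 (SE 0.48, limma adjusted p = 0.107).

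Timd4 was highest in aged sham 2 (0.578 FPKM) and aged injury 2 (0.504 FPKM), with no more than 0.221 FPKM elsewhere. In the same libraries Ccr7, a receptor of migrating dendritic cells and lymphocytes, was at 2.13 and 2.18 FPKM, against at most 0.667 FPKM elsewhere. Mfge8, which bridges phosphatidylserine to phagocytes and is also a product of follicular dendritic cells, was at 33.2 and 25.5 FPKM there, against at most 13.9 FPKM. Both genes were named after their values were seen. The mean log2 level of the pan-macrophage genes described below was also highest there, at 3.27 and 3.16, against at most 2.95 elsewhere. That of the recruited monocyte genes was 1.69 and 1.61, against at most 1.38. Summed monocyte FPKM was higher in aged sham 3 (86.6) than in aged injury 2 (79.9). The part of any of these genes in the level of Timd4 was not tested.

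Cbr2 was at 2.52, 2.24 and 1.96 FPKM in young sham, 2.77 to 3.28 FPKM in aged sham (56, 41 and 55 reads), and 3.64, 3.19 and 3.69 FPKM in aged injury. Each young library was below each aged one. The log2 change with age was 0.45 (SE 0.12, 95% confidence interval 0.18 to 0.72), which missed the threshold (limma adjusted p = 0.0619). Cbr2 shares 12.1% of its 50-base windows with the annotated gene Gm11771. Of the 4 other carbonyl reductase genes listed, limma called 0 with age, 3 had an unadjusted p under 0.05 (2 higher, 1 lower), and limma voom called 0.

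**Figure D2:**
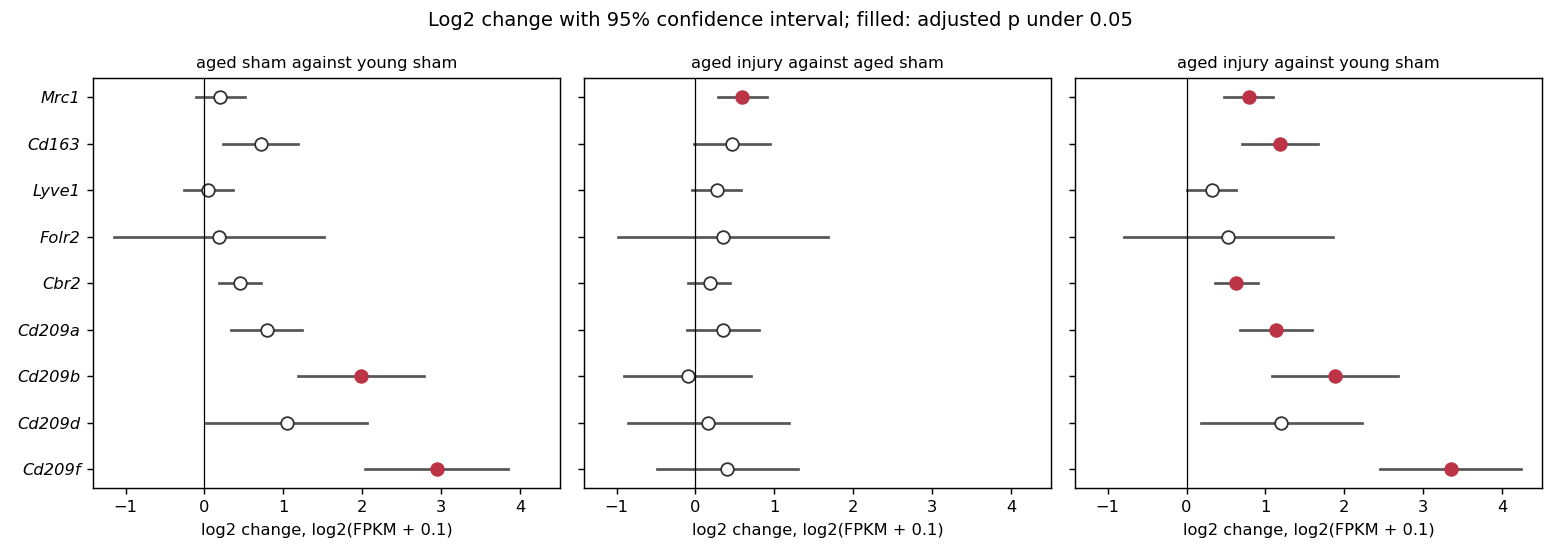
Log2 change of the 9 tested genes on the log2(FPKM + 0.1) scale (horizontal axis) with its 95% confidence interval in each comparison, filled where the adjusted p is under 0.05. Cd209b and Cd209f are filled for age, Mrc1 for injury in aged mice, and 6 genes for aged injury against young sham.

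The second comparison asked what nerve injury changes in ganglia of aged mice within 24 h. Among these pools aged sham 1 alone held much Y-linked RNA, so the groups compared were not balanced for sex. Mrc1 rose by 0.59 on the log2 scale (SE 0.14, 95% confidence interval 0.28 to 0.90), a 1.5-fold change, with a limma adjusted p = 0.0482. The injured libraries held 410, 341 and 374 reads of Mrc1, against 222, 226 and 198 in aged sham, and the lowest injured level, 4.18 FPKM, was above the highest sham level, 3.41 FPKM. The call was close to the threshold: it held in 5 of 17 alternatives, among which the log2 change ranged from 0.47 to 0.69 and the adjusted p from 0.0163 to 0.163. Of the 9 fits that leave out 1 library, only that without young sham 2 kept it. The limma adjusted p was 0.107 without aged sham 1 (log2 change 0.58), 0.0646 without aged sham 2 (0.69), 0.154 without aged sham 3 (0.50), 0.128 without aged injury 1 (0.62), 0.0985 without aged injury 2 (0.64), 0.163 without aged injury 3 (0.51), 0.086 without young sham 1 and 0.0547 without young sham 3 (0.59 in both). With the replicate block it was 0.113.

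No other of the 10 genes was called after injury. Of the 9 tested, 1 was called higher and 0 lower by limma, 1 had an unadjusted p under 0.05, and limma voom on recovered reads called 1 higher and 0 lower. Of all identifiers, 4.11% were called, 2.45% higher and 1.65% lower. The median log2 change of the 9 was 0.35, against -0.011 over all identifiers. Mrc1 and Lyve1 were higher in every injured than in every sham library, as were 11.7% of all identifiers. Lyve1 in injured ganglia was at 3.02, 2.85 and 3.32 FPKM, only marginally above the 2.85 FPKM of aged sham 2, and its log2 change was 0.27 (SE 0.14, limma adjusted p = 0.322).

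The lectins that rose with age did not pass the test after injury. Cd209f changed by 0.40 (95% confidence interval -0.49 to 1.30, limma adjusted p = 0.629) and Cd209b by -0.10 (-0.90 to 0.70, 0.918). The pair of Cd209f and Cd209g counted together changed by 0.35 (limma voom adjusted p = 0.555). Cd209a was at 2, 1.97 and 1.89 FPKM in injured ganglia, of which the lowest lay within the range of aged sham (1.27 to 1.94 FPKM) and the others above it, and the log2 change was 0.35 (limma adjusted p = 0.389). Cd163 changed by 0.46 (95% confidence interval -0.02 to 0.95, limma adjusted p = 0.268), Cbr2 by 0.18 (-0.09 to 0.44, 0.46), Cd209d by 0.16 (-0.86 to 1.18, 0.89) and Folr2 by 0.35 (-0.98 to 1.68, 0.797). Timd4, with no filter, changed by -0.05 (SE 0.48).

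The third comparison set injured aged ganglia against young sham ones, and it shares its groups with both others. Of the 9 tested genes, 6 rose: Cd209f by 3.35 (limma adjusted p = 0.00192), Cd209b by 1.88 (0.0117), Cd163 by 1.18 (0.0101), Cd209a by 1.13 (0.00935), Mrc1 by 0.79 (0.00886) and Cbr2 by 0.63 (0.0116), all on the log2 scale. Of all identifiers 13.1% were called, 8.2% higher and 4.89% lower. The median of the 9 was 1.13, against 0.021 over all identifiers, and in 9 of the 10 genes every injured library was above every young one, as in 19.9% of tested identifiers. The 9 without overlap include Timd4, which was not tested. Cd209b, Cd209d and Cd209f passed the filter through the aged groups here too, so these counts and the median are descriptions only. Lyve1 (0.32, limma adjusted p = 0.157), Cd209d (1.20, 0.114) and Folr2 (0.53, 0.597) did not pass, and Timd4, with no filter, changed by 1.64 (0.0811). Without aged injury 3, Cd163 (log2 change 1.08, limma adjusted p = 0.0515) and Cbr2 (0.59, 0.0546) lost their calls. Without aged sham 1, which is in neither group, Lyve1 gained one (0.32, 0.048).

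Set side by side, the genes differed in which step carried most of the change. For Mrc1 the log2 change was 0.20 from young to aged sham and 0.59 from aged sham to aged injury. Cd209f changed by 2.94 and then 0.40, Cd209b by 1.98 and then -0.10, and Cd209a by 0.79 and then 0.35. Cd163 lay between them, with 0.71 and then 0.46. Both steps share the aged sham libraries, and the difference between them was not tested.

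The 10 genes were then set against the general level of macrophage RNA, taken as the mean log2(FPKM + 0.1) of 18 pan-macrophage genes. That mean was 2.08, 2.06 and 2.18 in young sham, 2.63, 3.27 and 2.95 in aged sham, and 2.66, 3.16 and 2.94 in aged injury, so both aged groups were above the young one and overlapped each other. Relative to it, Mrc1 was at -0.70 ± 0.13 (SD, n = 3) in young sham, -1.34 ± 0.26 in aged sham and -0.72 ± 0.29 in aged injury. The aged sham libraries of Mrc1 all lay below the young ones on this scale, and their range met that of the injured ones. Lyve1 went from -0.77 ± 0.09 to -1.56 ± 0.15 and -1.26 ± 0.30, with every young library above every aged one. Cd209f ran the other way, from -4.56 ± 0.86 to -2.46 ± 0.66 and -2.02 ± 0.49, and Cd209b from -4.87 ± 0.45 to -3.73 ± 0.20 and -3.80 ± 0.30, in both without overlap between young and aged. Their young values lie near the floor, at no more than 4 reads of Cd209f and 2 of Cd209b per library. Cd209f in young sham 3 (-5.50) and Cd209b in young sham 2 (-5.38) were at 0 FPKM, so the added 0.1 FPKM sets these values. Cd163 (-1.82, -1.95 and -1.45), Cd209a (-2.20, -2.26 and -1.88) and Cbr2 (-0.89, -1.28 and -1.07) overlapped between young and aged sham. No test was made of these differences.

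**Figure D3:**
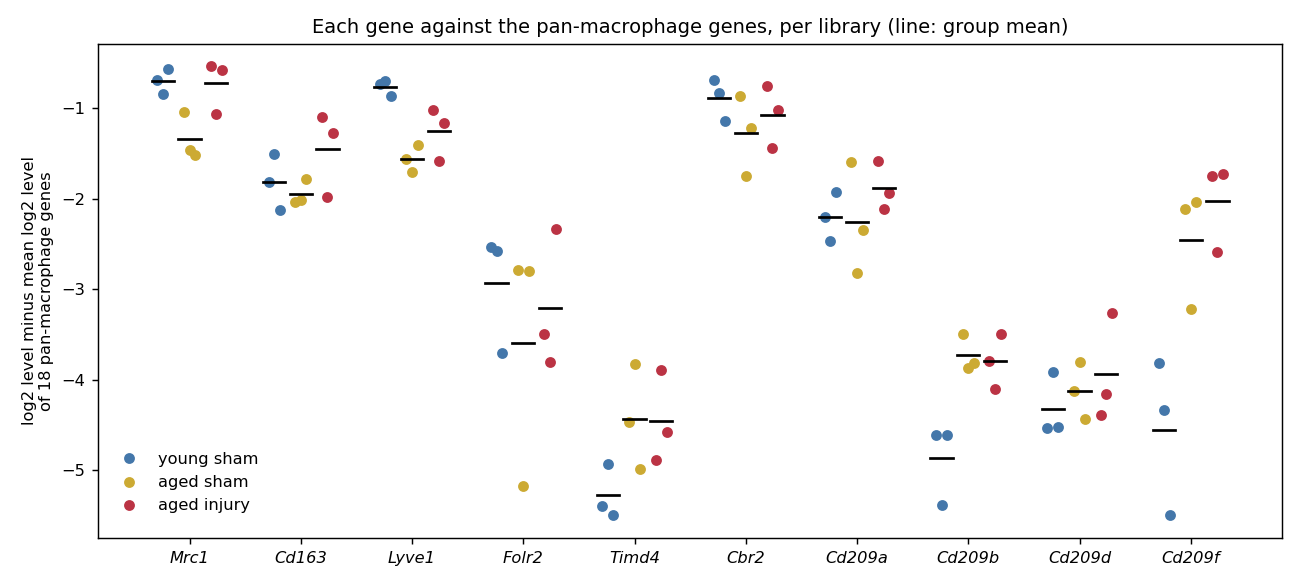
Log2 level of each gene minus the mean log2 level of 18 pan-macrophage genes (vertical axis) in each library, with group means as lines. Cd209b and Cd209f are higher in both aged groups than in young sham, where they rest on at most 2 and 4 reads per library. Lyve1 is lower in both aged groups, and Mrc1 is lower in aged sham than in young sham.

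Other genes listed for resident perivascular macrophages gave a mixed picture, and RNA of whole ganglia does not show which cells supplied them. Among them Selenop and Gas6 averaged 162 and 88.6 FPKM in young sham, far above any of the 10 genes. Of 20 other genes of resident perivascular macrophages, 15 were tested, and 2 rose with age. Ccl8, a chemokine of such macrophages, was at 1.64 ± 0.118 FPKM (SD, n = 3) in young sham and 8.31 ± 1.68 FPKM in aged sham (log2 change 2.25, limma adjusted p = 0.0112). Pf4, the chemokine CXCL4, which megakaryocytes also make, was at 4.91 ± 0.315 and 8.6 ± 1.46 FPKM (0.79, limma adjusted p = 0.0253). The median of the 15 was 0.39. After injury limma called 0 of the 15 (4 had an unadjusted p under 0.05, all higher, and limma voom called 0), with a median of 0.08. In aged injury against young sham 5 rose, among them Ccl8, Pf4, F13a1 (log2 change 0.84, limma adjusted p = 0.0044) and Slco2b1 (0.77, 0.0305).

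Of the 18 pan-macrophage genes 7 rose with age, among them the complement gene C1qb (log2 change 1.11, limma adjusted p = 0.0167), the adaptor gene Tyrobp (0.97, 0.0224) and the lysosomal gene Cd68 (1.20, 0.0337), with a median of 0.98. After injury limma called 0 of them (1 had an unadjusted p under 0.05, lower, and limma voom called 0), with a median of -0.02. Of 10 tested genes of recruited monocytes, S100a4 rose with age (0.70, limma adjusted p = 0.0429), and limma called 0 after injury (0 at an unadjusted p under 0.05, and 0 by limma voom). With age 9 of these 10 had a log2 change above 0 and 1, Ccr2, below (-0.23). Summed, the monocyte list was at 43.7 to 54.7 FPKM in young sham, 65.4 to 90.8 FPKM in aged sham and 55.4 to 79.9 FPKM in aged injury. S100a4 alone averaged 33.5, 54.3 and 45 FPKM in these groups, the largest part of each sum. The pan-macrophage list summed to 229 to 251, 286 to 385 and 283 to 365 FPKM in the same groups. The part of either in the changes of the 10 genes was not tested.

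**Figure D4:**
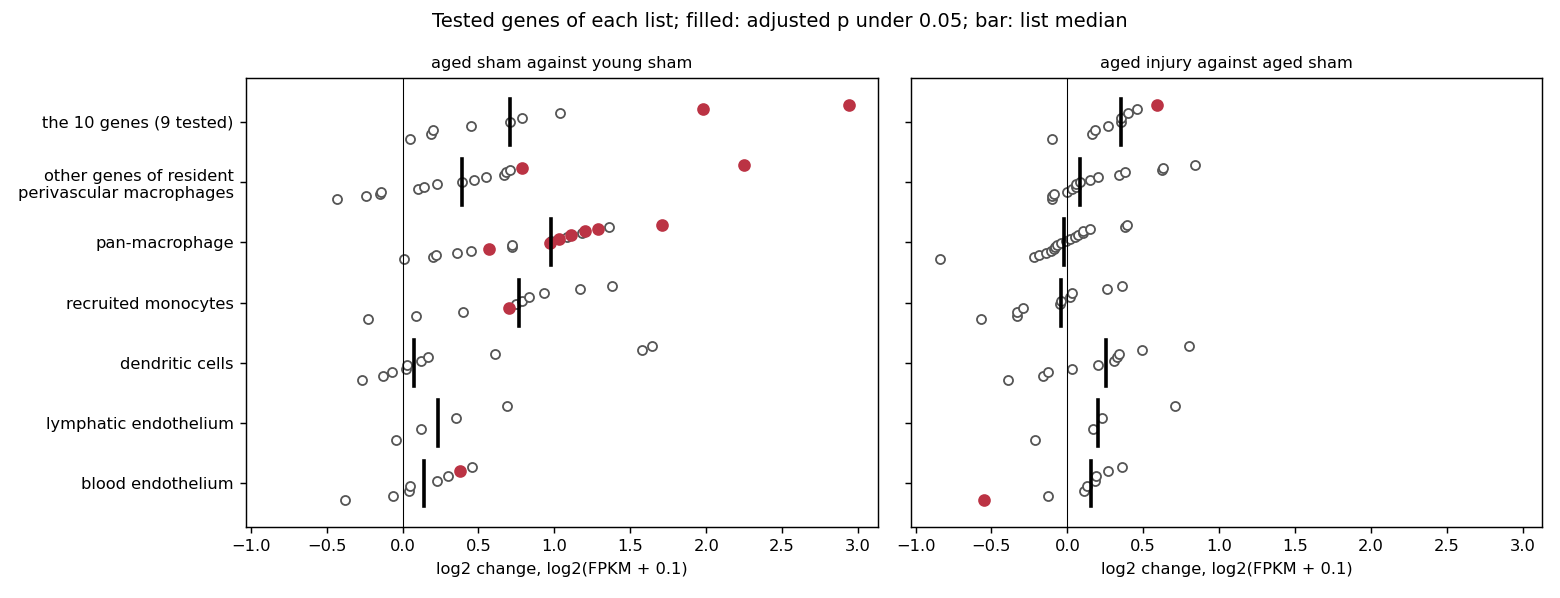
Log2 change of each tested gene (points, filled where the adjusted p is under 0.05) of the 10 genes and of lists of other cell types, with age and with injury, and the median of each list as a bar. With age the pan-macrophage median is 0.98 and that of the 10 genes 0.71, and with injury they are -0.02 and 0.35.

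Lists of other cell types were read in the same fit. Of 6 satellite glia genes 3 were called with age: Entpd2 rose (log2 change 0.76, limma adjusted p = 0.00881), while Ednrb (-0.95, 0.00762) and Gja1 (-0.80, 0.0222) fell, and after injury Glul rose (0.41, 0.0153). Of 8 sensory neuron genes the transcription factor genes Pou4f1 (-0.39, limma adjusted p = 0.0169) and Isl1 (-0.33, 0.0284) fell with age, and Isl1 fell further after injury (-0.26, 0.0391). Of 10 tested dendritic cell genes limma called 0 with age and 0 after injury (2 had an unadjusted p under 0.05 in each, all higher), and limma voom called Bst2 with age and Zbtb46 after injury. Of 8 blood endothelial genes, limma called Cldn5, a tight junction gene, higher with age (log2 change 0.38, limma adjusted p = 0.0474). With age 3 of the 8 had an unadjusted p under 0.05 (2 higher, 1 lower), and limma voom called 0. After injury Cldn5 fell by 0.55 (limma adjusted p = 0.0131), and limma voom also called it lower. Of 7 fibroblast genes limma called 0 in both comparisons, with 1 at an unadjusted p under 0.05 with age (lower) and 0 after injury, and limma voom called Col3a1 lower with age. Of 6 Schwann cell genes 2 fell with age, among them the myelin gene Pmp22 (log2 change -0.63, limma adjusted p = 0.00966). The summed Schwann cell list was at 2690 to 3090 FPKM in young sham, 1800 to 1910 FPKM in aged sham and 1570 to 1820 FPKM in aged injury. FPKM are shares of a library, and the part of this difference in the levels of the 10 genes was not tested.

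Partners of the 10 genes in their pathways were examined by list. Among growth factors of macrophages, Il34 (log2 change 0.40, limma adjusted p = 0.029) and Csf1r rose with age, and Csf1 rose after injury, from 5.56 ± 1.28 to 14.7 ± 1.45 FPKM (1.41, limma adjusted p = 0.00444). Il4ra, the receptor chain for IL-4 and IL-13, cytokines known to raise Mrc1 in mouse macrophages, rose in both steps. It was at 8.6 ± 1.6 FPKM in young sham, 13 ± 0.891 in aged sham and 20.2 ± 0.38 in aged injury (log2 changes 0.60 and 0.64, limma adjusted p = 0.0352 and 0.0195). Of the 10 tested genes of this response limma called no other in either step, and limma voom also called Il13ra1 after injury. RNA of whole ganglia does not show which cells supplied Il4ra or Csf1, and their part in the levels of Mrc1 or the other genes was not tested.

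Cd44, the main hyaluronan receptor besides Lyve1, was at 34 ± 4.06 FPKM in aged sham and 57.5 ± 5 in aged injury (log2 change 0.76, limma adjusted p = 0.00529), the only one of 8 tested hyaluronan genes that limma called after injury. Pros1, a bridge between phosphatidylserine and phagocyte receptors, rose after injury (0.40, limma adjusted p = 0.0293), the only one of 9 in its list that limma called, while limma voom also called Tyro3, lower. Blvrb, a reductase of heme breakdown, rose with age (0.67, limma adjusted p = 0.0438) among 10 genes of hemoglobin and heme handling. Of 3 relatives of the mannose receptor, 6 other scavenger receptors and 2 genes of folate uptake that were tested, limma and limma voom called 0 with age and after injury. At an unadjusted p under 0.05 there was 1 gene in each of these lists with age, all higher, and after injury 0, 0 and 1, the last lower.

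The genes whose levels over the 9 libraries were most like those of each of the 10 were sought among 13332 or 13333 tested genes with a symbol and a mean of at least 1 FPKM. Likeness was the root mean square difference of standardised log2 profiles, as a description with no test. Mrc1 was closest to Clic4 (0.225), Pros1 (0.227) and F3 (0.229), and Cd163 to Sorcs2 (0.164), Wdr1 (0.186) and Usp22 (0.215). Cbr2 and Cd209f were among the 3 closest to each other (0.221), besides Zyx and Alas1 for Cbr2 and Kdm4b and Tuba1c for Cd209f. Cd209a was closest to Ildr2 (0.272), Cd209b to Pcdhb5 (0.226), Cd209d to Stra6 (0.271), Lyve1 to Egflam (0.323) and Folr2 to Gm5559 (0.330). With 3 groups of 3 libraries, many genes share such a profile.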

How the data were processed

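Libraries of polyadenylated RNA, 2 mice each, were sequenced from both ends, per the labels' protocols. The authors deposited 1 table of FPKM for 45904 identifiers. Per the submitters' processing notes the tools were FastQC 0.10.1, R 3.1.1 with limma 3.22.7 and edgeR 3.8.6, HTSeq 0.6.0, SAMtools 0.1.19, and TopHat2 2.0.12 with Bowtie2 2.2.3, on mm10, with no role for each. Which annotation release and which strand setting were used is not given in the sources used here. Columns were assigned by age, treatment and number in their names, and 0 were left out.

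The genes, the lists and the tests were chosen with earlier results of these data known. The 17601 identifiers averaging 0.2 FPKM or more entered limma 3.58.1 (R 4.3.3) as log2(FPKM + 0.1), with a variance trend, all 9 libraries in 1 fit, two-sided, adjusted by Benjamini-Hochberg over all and called under 0.05. Reads were recovered as whole multiples of a step per gene (within 0.001 in 17510 identifiers, 99.5%). They are known up to a common factor per gene. For the 10 genes the step was 1.000 to 1.433 times that expected from annotated exon length. The p-values measure the spread between pools. Named were all 10 genes, up to 4 called genes per list with the smallest p, the 3 closest profiles and marker checks; other genes named beside them were chosen after their values were seen. Alternatives were another pseudocount and filters, equal medians, quantile normalization, 2 groups alone, a replicate block, limma voom on the reads and leaving out each library. Scripts were tested on simulated data. Symbols came from GENCODE release M21.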

Additional observations from a re-analysis of the deposited data

How the results depend on the processing

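In the age comparison, the number of the 10 genes called, 2, was 1 when only the 6 averaging 1 FPKM or more were tested and 0 in a fit of those 2 groups alone; it was 0 to 2 with 1 library left out. After injury the count of 1 became 0 with no filter, with equal medians and with the 2 groups alone, and was 0 to 1 with 1 library left out. Against young sham, the count of 6 was 4 to 7 with 1 library left out and 5 or 6 under all other alternatives run. Over all identifiers, the 707 called with age were 239 with no filter, 31 in the 2 groups alone and 23 to 1536 with 1 library left out. The 723 called after injury were 302 in the 2 groups alone and 151 to 740, and the 2304 of the third comparison 869 to 2365, with 1 library left out. Changes near 0 turned sign, none of them called: Lyve1 with age to -0.02 under quantile normalization and to -0.04 and -0.02 without aged sham 2 and 3 (-0.04 to 0.21 over the fits without 1 library); Folr2 with age to -0.16, -0.05 and -0.21 without young sham 3, aged sham 1 and aged sham 3 (range -0.21 to 0.82), and after injury to -0.29 and -0.10 without aged sham 2 and aged injury 3 (-0.29 to 0.74). After injury Cd209b went to 0.03 without aged injury 1 (-0.26 to 0.03) and Cd209d to -0.19 without aged injury 3 (-0.19 to 0.51). Apart from the alternatives that test fewer genes or samples, the cause was not tested.

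The replicate numbers were not taken to pair the libraries, since same-numbered ones correlated at -0.07 to -0.03 between young and aged sham, at -0.05 to -0.02 between young sham and aged injury, and at 0.24, 0.27 and 0.06 between aged sham and injury, where 1 of the 3 values is under 0.1. In that last step each library did correlate best with the one of its own number, since different numbers gave -0.26 to 0.04, which is a hint from the data and not from the design. With the replicate block, 1 of the 10 genes was called with age (Cd209f), 0 after injury and 6 in the third comparison, and 101, 273 and 1561 identifiers were called in all.

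Counting error limits the low genes: young sham held at most 2 reads of Cd209b, 2 of Cd209d, 4 of Cd209f and 1 of Timd4 per library.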
